A study of Mus musculus with 14 samples.

Results

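The genes described are those of oxidative phosphorylation, the subunits and Nduf-named assembly factors of respiratory complexes I to V. Members were chosen by name from the deposited count table, as gene IDs whose mouse symbol begins with Nduf, Uqcr, Cox4 to Cox8 or Atp5, the 4 Sdh subunit genes, and the mitochondrially encoded mt-Nd, mt-Co, mt-Cytb and mt-Atp genes. Pseudogenes, 11 in all, and the muscle isoform Cox6a2 were left out, and no measured value entered the choice. The result was 105 members of 48794 genes in the table, 92 of them nuclear and 13 encoded in mitochondrial DNA. The nuclear members comprised 7 core and 29 accessory subunits and 8 assembly factors of complex I, the 4 subunits of complex II, and 8, 19 and 17 genes of complexes III, IV and V.

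RNA was measured in sorted CD45+ leukocytes of mouse liver needle biopsies and, as the control, in bulk liver tissue. The sorted libraries were made from 2500, 5000, 10000 or 20000 cells with 3 libraries at each number, and bulk liver had 2 libraries. Every group is labelled WT with no treatment; the labels give no age or sex. Nor do they state if replicates are different mice, and the p-values measure the spread between these libraries, which may be technical. CD45 marks all white blood cells, so the sorted groups are mixtures of lymphoid and myeloid cells, while bulk liver has hepatocytes as its main cell type and also holds some leukocytes.

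Oxidative phosphorylation is carried out in the inner mitochondrial membrane. Complexes I and II pass electrons from NADH and succinate to ubiquinone, complex III passes them to cytochrome c and complex IV to oxygen, and complex V uses the resulting proton gradient to make ATP. Complex II is encoded wholly in the nucleus, whereas complexes I, III, IV and V combine nuclear subunits with subunits encoded in mitochondrial DNA, which is transcribed separately. Hepatocytes are among the cell types richest in mitochondria, and resting lymphocytes hold comparatively few.

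The sorted libraries held 6723357 to 14496314 counts and the bulk libraries 7605290 and 8034138. Pan-leukocyte and hepatocyte markers followed the labels. In sorted cells 6 of 6 leukocyte markers were higher, at 1.01% of counts on average against 0.00747% in bulk liver. The hepatocyte markers were lower in 8 of 8, at 0.0128% against 5.08%. Levels are given as CPM, counts scaled to the same total in every library and not divided by gene length, after the trimmed mean of M-values (TMM) method, whose factors were 1.115 to 1.148 in sorted libraries and 0.4915 and 0.4862 in bulk liver. The choice of scaling matters for every sorted-to-bulk comparison, because the median log2 fold change of all genes was 0.17 with TMM scaling, 1.37 with library totals alone and 1.20 on the authors' TPM (transcript abundance per length, scaled to the same total in every library). Markers of Kupffer cells, the macrophages of the liver, were lower in sorted cells in 6 of 6 with TMM scaling (median -0.996). With library totals 2 of them were higher and 0 lower. They took 0.0382% of counts in sorted libraries on average against 0.0320% in bulk liver.

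Of the 105 members, 95 had enough counts to be tested, 87 nuclear and 8 mitochondrially encoded. Among the untested, Cox7b2, Cox8b and Cox8c, isoforms of complex IV subunits known from testis, muscle or heart, had no count in any library. Cox4i2, a lung and oxygen-related isoform of subunit IV, had 3 counts in 1 library of 5000 cells and 1 count in bulk replicate 2. The muscle isoform Cox7a1 had 1 to 6 counts per sorted library, against 4 and 15 in bulk liver. The other untested members, mt-Nd4l, mt-Co2, mt-Co3, mt-Atp6 and mt-Atp8, had 0 counts in all 14 libraries, while the deposited TPM values of 4 of them were among the highest of any member.

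Most of those mitochondrial genes share sequence with annotated pseudogenes that lie side by side on the minus strand of chromosome 1 (GRCm38, GENCODE M21). Gm28661 at chr1:24614885-24615565 matched mt-Co2 (chrM:7013-7696) over 681 bases with 0 mismatches, Gm28437 matched mt-Co3 over 783 bases with 0 mismatches, and Gm10925 matched mt-Atp6 over 678 bases with 0 mismatches. Measured in words of 50 bases, 100% of mt-Co2, 99.86% of mt-Co3, 99.53% of mt-Atp6, 98.79% of mt-Nd4l, 97.99% of mt-Nd3, 62.23% of mt-Nd4 and 51.14% of mt-Co1 occurred in at least 1 other annotated gene. No word of mt-Nd1, mt-Nd6, mt-Cytb or mt-Atp8 did so. The first 60 bases of mt-Co2 are shown beside the same stretch of its chromosome 1 copy, because no read inside them can be assigned to either gene from its sequence, and a stretch of mt-Co1 is shown beside Gm29216, where capitals mark the 6 mismatches.
mt-Co2 (chrM:7013-7072, +): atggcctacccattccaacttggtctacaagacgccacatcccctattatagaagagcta
Gm28661 (chr1:24615506-24615565, -): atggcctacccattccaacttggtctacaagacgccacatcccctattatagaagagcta
mt-Co1 (chrM:6381-6440, +): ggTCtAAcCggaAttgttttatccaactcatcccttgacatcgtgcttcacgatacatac
Gm29216 (chr1:24616138-24616197, -): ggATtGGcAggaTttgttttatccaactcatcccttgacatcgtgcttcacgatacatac
All 6 mismatches found in the 492 aligned bases of mt-Co1 and Gm29216 lie in this window. The copies themselves held 0 to 6 counts in all per library.

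Oxidative phosphorylation transcripts were lower in sorted leukocytes than in bulk liver across all 5 complexes. With TMM scaling, 92 of 95 tested members were called lower and 0 higher at an adjusted p of 0.05 (edgeR quasi-likelihood test, Benjamini-Hochberg over 16294 genes), where 80.3% of all tested genes were called, 38.5% lower and 41.8% higher. For 91 of the 95, every sorted library lay below both bulk libraries, which held for 37.7% of all genes. The 3 members without a call were Cox7c, Cox6b2 and Atp5g2. The median log2 fold change was -2.18 over the 87 nuclear members and -1.56 over the 8 mitochondrially encoded ones, against 0.17 over all genes. Relative to the median of all genes, the nuclear median was -2.35 with TMM, -2.35 with library totals and -1.72 on TPM, and the mitochondrial median was -1.73, -1.72 and -0.82. In bulk samples fewer cells of a type and less RNA per cell cannot be told apart, and hepatocyte markers moved in the same direction, so their part in these differences was not tested.

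The number of calls depended on how libraries were scaled. With library totals, 76 nuclear members were called lower and 6 higher, and 4 mitochondrially encoded members lower and 0 higher, where 22.4% of all genes were called lower and 65.9% higher. On the authors' TPM, tested with limma on log2(TPM + 1), a scale that understates changes of low genes, 69 of 88 nuclear members were lower and 8 higher, where 15.7% of genes were lower and 67.2% higher. On that scale 5 of 13 mitochondrially encoded members were higher and 1 lower, with a median of 0.38 against 1.20 over all genes. All 13 lay below that median of all genes.

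**Figure D1:**
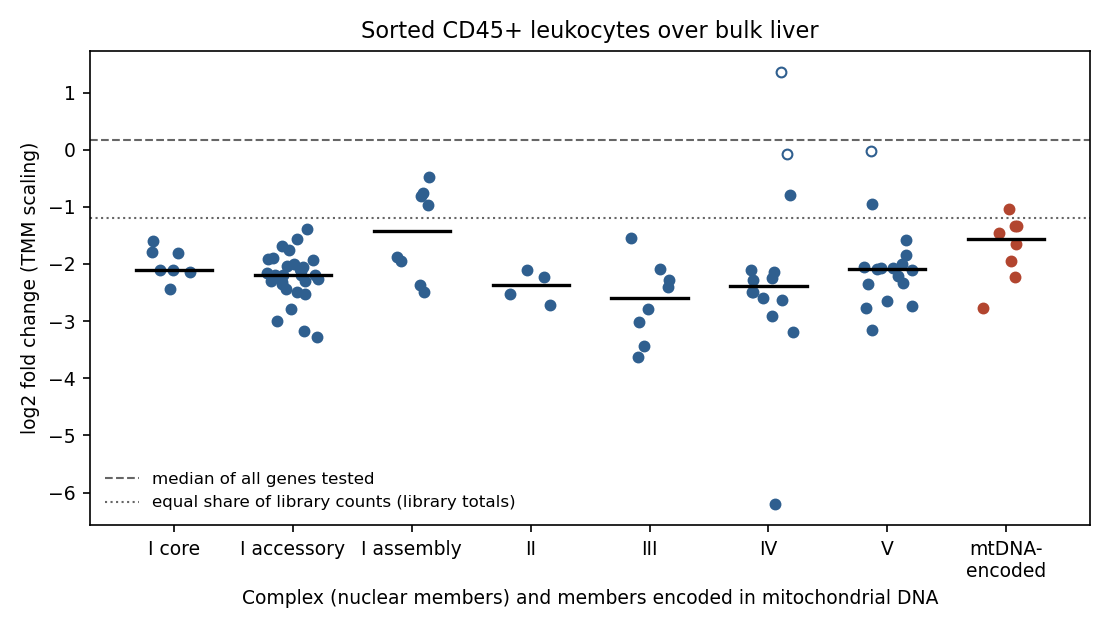
Log2 fold change of sorted leukocytes over bulk liver for each tested member, grouped by complex (blue, nuclear) and encoded in mitochondrial DNA (red), with TMM scaling; bars are medians, open points did not pass the test, the dashed line is the median of all genes tested and the dotted line marks an equal share of library counts. With this scaling every point but that of Cox6b2 lies below 0, Cox7c and Atp5g2 close to it; library totals place Atp5s, Cox7a2l, Cox7c, Atp5g2, Ndufaf3, Ndufaf5, Ndufaf7, Ndufaf8 and mt-Nd1 above 0 as well.

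In complex I, all 7 core and all 29 accessory nuclear subunits were lower in sorted leukocytes with TMM scaling, with median log2 fold changes of -2.10 and -2.19. Ndufs1, the largest iron-sulfur subunit of the NADH-oxidising arm, had 95.6 CPM in the lowest, 106 in the median and 121 in the highest sorted library, against 372 and 370 CPM in bulk liver. Every sorted library lay below both bulk libraries, and the log2 fold change was -1.79 (SE 0.06, edgeR adjusted p = 1.08e-16).

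The accessory subunits with the lowest fold changes were Ndufa6 and Ndufb9, both LYR-motif proteins that bind the mitochondrial acyl carrier protein. Ndufa6 had 36.6 CPM in the lowest, 42.9 in the median and 55.8 in the highest sorted library, against 432 and 432 CPM in bulk liver, for a log2 fold change of -3.28 (SE 0.07, edgeR adjusted p = 6.90e-19). The Ndufb9 values were 58.1, 65.4 and 75.7 CPM in sorted libraries and 602 and 583 CPM in bulk liver, a log2 fold change of -3.17 (SE 0.06). Neither gene's sorted libraries came near the bulk values. At the other end, Ndufb7, a subunit of the membrane arm, had 46.6, 59.9 and 76.9 CPM in sorted libraries against 155 and 161 in bulk liver, and its log2 fold change was -1.38 (SE 0.11) with TMM scaling but 0.29 on TPM. Ndufa3, a small membrane-arm subunit, had 34.1, 37.7 and 58.6 CPM against 125 and 110 CPM in bulk liver, with a log2 fold change of -1.57 (SE 0.12) with TMM scaling and 0.07 on TPM.

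The 8 Nduf-named assembly factors, which build complex I and do not remain in it, had a median log2 fold change of -1.42 with TMM scaling; the difference from the subunits was not tested. Ndufaf2, a chaperone that joins a late assembly intermediate, had 2.61 CPM in the lowest, 4.86 in the median and 6.72 in the highest sorted library, against 24.4 and 27.2 in bulk liver, a log2 fold change of -2.49 (SE 0.21, edgeR adjusted p = 1.96e-09). Ndufaf6, needed early for the mt-Nd1 module, had 5.02, 7.55 and 9.67 CPM in sorted libraries against 40.7 and 37.2 CPM in bulk liver, a log2 fold change of -2.36 (SE 0.18). By mean CPM over all 14 libraries, the highest factors were Ndufaf4 and Ndufaf1. Ndufaf4 had 23.7, 28.8 and 35.7 CPM in sorted libraries against 104 and 110 CPM in bulk liver, a log2 fold change of -1.88 (SE 0.09). Ndufaf1, part of the membrane-arm assembly complex, had 17.4, 22.5 and 32.04 CPM against 87.6 and 88.2 CPM in bulk liver, a log2 fold change of -1.95 (SE 0.13).

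For the remaining named factors the direction depended on the scaling. Ndufaf3, a partner of Ndufaf4, had 18.7, 20.6 and 25.1 CPM in sorted libraries against 32.9 and 37.7 CPM in bulk liver, with a log2 fold change of -0.75 (SE 0.13) with TMM scaling, 0.45 with library totals and 0.68 on TPM. Ndufaf5, which modifies an arginine of the subunit Ndufs7, had 7.22, 9.68 and 13.0 CPM in sorted libraries against 15.5 and 12.3 CPM in bulk liver, so that the groups overlapped. The log2 fold change of Ndufaf5 was -0.47 (SE 0.21, edgeR adjusted p = 0.0453) with TMM scaling, 0.73 with library totals and 1.02 on TPM. That call was lost without either bulk library (-0.24 without replicate 1 and -0.57 without replicate 2) and without each of 7 sorted libraries in turn.

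The 4 subunits of complex II, succinate dehydrogenase, were lower in sorted leukocytes with a median log2 fold change of -2.37. Sdha, the flavoprotein that oxidises succinate, had 260 CPM in the lowest, 291 in the median and 319 in the highest sorted library, against 1231 and 1283 CPM in bulk liver, a log2 fold change of -2.11 (SE 0.06, edgeR adjusted p = 7.20e-18). Sdhb, the iron-sulfur subunit, had 121, 136 and 150 CPM in sorted libraries against 629 and 636 CPM in bulk liver, a log2 fold change of -2.23. The membrane anchors Sdhc and Sdhd were lower by more. Sdhc had 52.2, 57.3 and 69.2 CPM against 373 and 395 CPM in bulk liver, a log2 fold change of -2.72 (SE 0.07), and Sdhd had 105, 116 and 129 CPM against 669 and 668 CPM, a log2 fold change of -2.52 (SE 0.06). No library of one group overlapped the other for any of the 4 genes.

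Complex III had the lowest median of the nuclear groups, -2.60 over 8 genes, all of them lower. Uqcrq (chr11:53427922-53430831, minus strand), a small subunit near the cytochrome b core, had 40.4 CPM in the lowest, 51.3 in the median and 62.9 in the highest sorted library, against 639 and 642 CPM in bulk liver. With a log2 fold change of -3.62 (SE 0.09, edgeR adjusted p = 1.42e-17), Uqcrq had the most negative change of the complex, and on the authors' TPM it averaged 273 ± 32.3 in sorted libraries (SD, n = 12) against 1067 and 1069 in bulk liver. Uqcr11, the smallest subunit, had 22.4, 28.8 and 37.6 CPM in sorted libraries against 301 and 318 CPM in bulk liver, a log2 fold change of -3.43 (SE 0.10). The Rieske iron-sulfur protein gene Uqcrfs1, which carries electrons towards cytochrome c, had 94.7, 103 and 115 CPM in sorted libraries against 816 and 847 CPM in bulk liver, a log2 fold change of -3.01 (SE 0.05). The core proteins, which do not carry electrons, were the least reduced of the complex.

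Uqcrc2, core protein II, had 108, 116 and 129 CPM in sorted libraries against 473 and 514 CPM in bulk liver, a log2 fold change of -2.08. Uqcrc1, core protein I, had 235, 264 and 303 CPM in sorted libraries against 759 and 783 CPM in bulk liver, a log2 fold change of -1.54 (SE 0.06, edgeR adjusted p = 3.45e-15). On TPM the Uqcrc1 difference was -0.03 and did not pass the test, while Uqcrq remained at -1.97, so that the spread between members of 1 complex was present on both scales.

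Among the nuclear genes of complex IV, cytochrome c oxidase, 12 of 14 tested were lower, with a median log2 fold change of -2.38. Cox4i1, the common isoform of subunit IV, had 173 CPM in the lowest, 192 in the median and 234 in the highest sorted library, against 929.1 and 913 CPM in bulk liver, a log2 fold change of -2.25 (SE 0.07, edgeR adjusted p = 4.74e-17). Ndufa4, named as a complex I gene but a subunit of complex IV, had 71.1, 80.9 and 113 CPM in sorted libraries against 787 and 748 CPM in bulk liver, a log2 fold change of -3.19 (SE 0.07). Its paralogue Ndufa4l2, known as a hypoxia-induced gene, had 0 to 5 counts per sorted library, 10 in all, against 15 and 21 counts in bulk liver. Cox7b, Cox6b1 and Cox8a, small structural subunits, had log2 fold changes of -2.49, -2.48 and -2.10.

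Subunit VIIa and its relatives differed from one another. Cox7a2, the form found in most tissues, had 45.5 CPM in the lowest, 56.8 in the median and 75.5 in the highest sorted library, against 415 and 429 CPM in bulk liver, a log2 fold change of -2.90 (SE 0.10). Cox7a2l (chr17:83501918-83517330, minus strand), which links complexes III and IV into supercomplexes, had 38.3, 46.7 and 55.8 CPM in sorted libraries against 82.2 and 79.2 CPM in bulk liver. The change of Cox7a2l was -0.80 (SE 0.10) in log2 with TMM scaling, 0.40 with library totals and 0.91 on TPM, where it averaged 118 ± 9.7 in sorted libraries (SD, n = 12) against 62.4 and 61.0 in bulk liver. The ratio of the 2 genes within a library needs no scaling: log2 of Cox7a2l over Cox7a2 was -0.28 ± 0.208 in sorted libraries (SD, n = 12) and -2.38 in bulk liver (n = 2), a difference of 2.10 (exact two-sided permutation test over libraries, p = 0.022, the smallest of the 91 arrangements, adjusted p = 0.0366 over 5 pairs).

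The complex IV members without a call were Cox7c and Cox6b2. Cox7c, a small structural subunit, had 9.53, 11.1 and 14.5 CPM in sorted libraries against 11.0 and 13.6 CPM in bulk liver, so the groups overlapped. On counts its change was -0.08 in log2 (SE 0.19, edgeR adjusted p = 0.697) but -0.83 on TPM, where it averaged 255 ± 20.96 in sorted libraries (SD, n = 12) against 453 and 451 in bulk liver. The counts were low for a gene with such TPM values, and 22.1% of its 50-base words occur in other annotated genes, with 15.3% of all its words in the processed pseudogene Gm10012. Cox6b2, known as a testis isoform of subunit VIb, had 5 to 22 counts per sorted library against 1 and 2 counts in bulk liver, a log2 fold change of 1.35 (SE 0.80, edgeR adjusted p = 0.128).

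For complex V, the ATP synthase, 16 of 17 nuclear genes were lower with a median log2 fold change of -2.09. Atp5b (chr10:128083273-128090391, plus strand), the catalytic beta subunit and the most highly counted nuclear member, had 720 CPM in the lowest, 760 in the median and 820 in the highest sorted library, against 3317 and 3328 CPM in bulk liver, a log2 fold change of -2.11 (SE 0.04, edgeR adjusted p = 1.87e-19). Atp5a1, the alpha subunit that alternates with beta in the catalytic ring, had 563, 619 and 670 CPM against 2568 and 2585 CPM in bulk liver, a log2 fold change of -2.06 (SE 0.05). Atp5s, coupling factor B, had 8.11, 10.4 and 12.2 CPM against 23.6 and 16.7 CPM in bulk liver, with a log2 fold change of -0.95 (SE 0.17) with TMM scaling, 0.25 with library totals and 0.74 on TPM.

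The c subunit, which forms the rotating ring in the membrane, is encoded by Atp5g1, Atp5g2 and Atp5g3, whose mature proteins are identical. Atp5g3 (chr2:73908447-73911326) had 142 CPM in the lowest, 151 in the median and 178 in the highest sorted library, against 1376 and 1411 CPM in bulk liver, and its log2 fold change of -3.15 (SE 0.04, edgeR adjusted p = 2.57e-22) had the smallest p of all members. Atp5g1 had 10.9, 13.6 and 15.998 CPM in sorted libraries against 92.1 and 90.7 CPM in bulk liver, a log2 fold change of -2.77 (SE 0.11). The log2 ratio of Atp5g1 to Atp5g3 was -3.55 ± 0.129 in sorted libraries (SD, n = 12) against -3.93 in bulk liver, a difference of 0.38 (exact two-sided permutation test, p = 0.022, adjusted p = 0.0366). On TPM, which is per length, Atp5g3 made up 57.8 ± 1.96% of c subunit transcripts in sorted libraries and 62.97% in bulk liver, Atp5g1 33.2 ± 1.45% and 30.6%, and Atp5g2 8.98 ± 1.73% and 6.43% (SD, n = 12 sorted libraries). Atp5g2 had 7 to 23 counts per sorted library and 4 and 4 counts in bulk liver, too few to judge it on counts. On TPM its share overlapped between groups, at 6.23% to 11.7% in sorted libraries against 7.12% and 5.74% in bulk liver. Of its words 38.4% occur in other genes, and Gm10175 matched it over 645 bases with 0 mismatches. How TPM was divided between Atp5g2 and such copies is uncertain, and the 3 shares carry that uncertainty.

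The ATP synthase inhibitory factor, which blocks ATP hydrolysis and is listed here as Atpif1, is not a member by name, and was looked up as the regulator of complex V. Its scaled level was 45.9 CPM in the lowest, 52.5 in the median and 64.0 in the highest sorted library, against 53.0 and 62.3 CPM in bulk liver. The groups overlapped, and the log2 fold change was -0.11 (SE 0.12, edgeR adjusted p = 0.383) with TMM scaling, 1.09 with library totals and 1.57 on TPM. It thus had no call with the scaling under which 16 of 17 complex V genes were lower; whether it differs from them was not tested.

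Mitochondrially encoded members were lower in sorted leukocytes on counts with TMM scaling, in 8 of 8 tested genes, whereas on library totals mt-Nd1 and on TPM mt-Nd1, mt-Nd2, mt-Nd3, mt-Nd4, mt-Nd5 and mt-Cytb had values above 0. mt-Co1, the catalytic subunit of complex IV, had 2194 CPM in the lowest, 2979 in the median and 4857 in the highest sorted library, against 14359 and 14408 CPM in bulk liver, a log2 fold change of -2.22 (SE 0.17, edgeR adjusted p = 1.18e-07). mt-Cytb, the only mitochondrially encoded subunit of complex III, had 2974, 4029 and 6343 CPM against 10572 and 10533 CPM in bulk liver, a log2 fold change of -1.34 (SE 0.14) on TMM-scaled counts and 0.38 on TPM. The groups overlapped for neither gene.

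Of the complex I subunits encoded in mitochondria, mt-Nd1, which forms part of the ubiquinone channel, had 2394, 3227 and 4704 CPM in sorted libraries against 6642 and 6885 CPM in bulk liver, a log2 fold change of -1.04 (SE 0.12) with TMM scaling, 0.16 with library totals and 0.70 on TPM. mt-Nd6, the only 1 of the 13 encoded on the other DNA strand, had 269, 427 and 601 CPM against 1522 and 1601 CPM in bulk liver, a log2 fold change of -1.94 (SE 0.13, edgeR adjusted p = 7.32e-09). The proton-pumping subunits mt-Nd2, mt-Nd4 and mt-Nd5 lay between, at -1.33, -1.65 and -1.47 with TMM scaling and 0.41, 0.10 and 0.28 on TPM. mt-Nd3 had 1 to 25 counts per sorted library against 12 and 17 in bulk liver, although its TPM averaged 1298 ± 468 in sorted libraries (SD, n = 12) against 1515 and 914 in bulk liver.

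**Figure D2:**
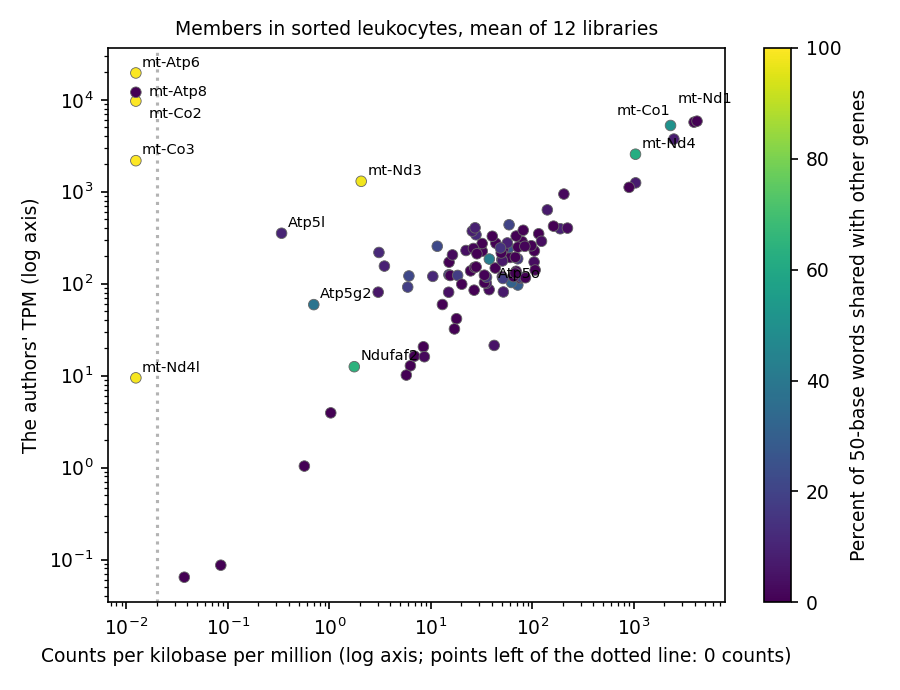
The authors' TPM against CPM per kilobase of exon, both as means of the 12 sorted libraries and on log axes, coloured by the percent of a member's 50-base words that occur in other annotated genes. mt-Atp6, mt-Atp8, mt-Co2, mt-Co3 and mt-Nd4l stand left of the dotted line because they have 0 counts, and mt-Nd3, Atp5g2 and Atp5l had few counts for their TPM.

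Counts and TPM of the members thus did not order the genes alike. Across the 97 members with both values above 0, Spearman's rho between TPM and CPM per kilobase was 0.611 in sorted leukocytes and 0.672 in bulk liver, a description across genes that are not independent. Atp5l, subunit g of the ATP synthase and singled out after its values were seen, had 11 to 31 counts per sorted library and 27 and 17 counts in bulk liver. Its TPM was 353 ± 35.5 in sorted libraries (SD, n = 12) against 462 and 486 in bulk liver.

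Per length, the most abundant members of both groups were mitochondrially encoded. Not all of the mitochondrially encoded genes lay above the nuclear ones: in bulk liver mt-Nd5 averaged 1007 TPM and Atp5b 1256. On TPM, mt-Atp6, the membrane subunit a of complex V, averaged 19562 ± 3730 in sorted libraries (SD, n = 12) against 10514 and 10754 in bulk liver, and mt-Atp8, whose gene overlaps the start of mt-Atp6, averaged 12064 ± 4336 against 5873 and 6181. mt-Co2, which takes electrons from cytochrome c, averaged 9674 ± 2455 in sorted libraries against 5539 and 6092 in bulk liver, and mt-Co3 averaged 2175 ± 818 against 1341 and 1121. mt-Nd4l, a small membrane subunit of complex I, was listed at 0 to 66.7 TPM in sorted libraries against 0 and 18.8 in bulk liver, while its copy Gm10222 averaged 800 ± 236 against 908 and 978. All 5 of these members have 0 counts in the count table, so their TPM values could not be compared with a count. The copies of mt-Co3 and mt-Atp6 on chromosome 1 were listed at high TPM too: Gm28437 averaged 15969 ± 4284 in sorted libraries (SD, n = 12) against 12962 and 13328 in bulk liver, and Gm10925 averaged 7792 ± 2338 against 4983 and 5105. How the TPM of a pair is divided between a gene and its copy is therefore uncertain for those members.

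The order of the nuclear members also differed between groups on TPM. In sorted libraries the highest were Atp5b at 943 ± 71.8 and Cox4i1 at 634 ± 44.5 (SD, n = 12), whereas in bulk liver the highest were Atp5b at 1248 and 1265 and Uqcrq at 1067 and 1069. Cox4i1 in bulk liver was at 814 and 834, below Atp5g3 at 1029 and 1049. Atp5b led in both groups, while Atp5g3 was at 381 ± 25.2 and Uqcrq at 273 ± 32.3 in sorted libraries.

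**Figure D3:**
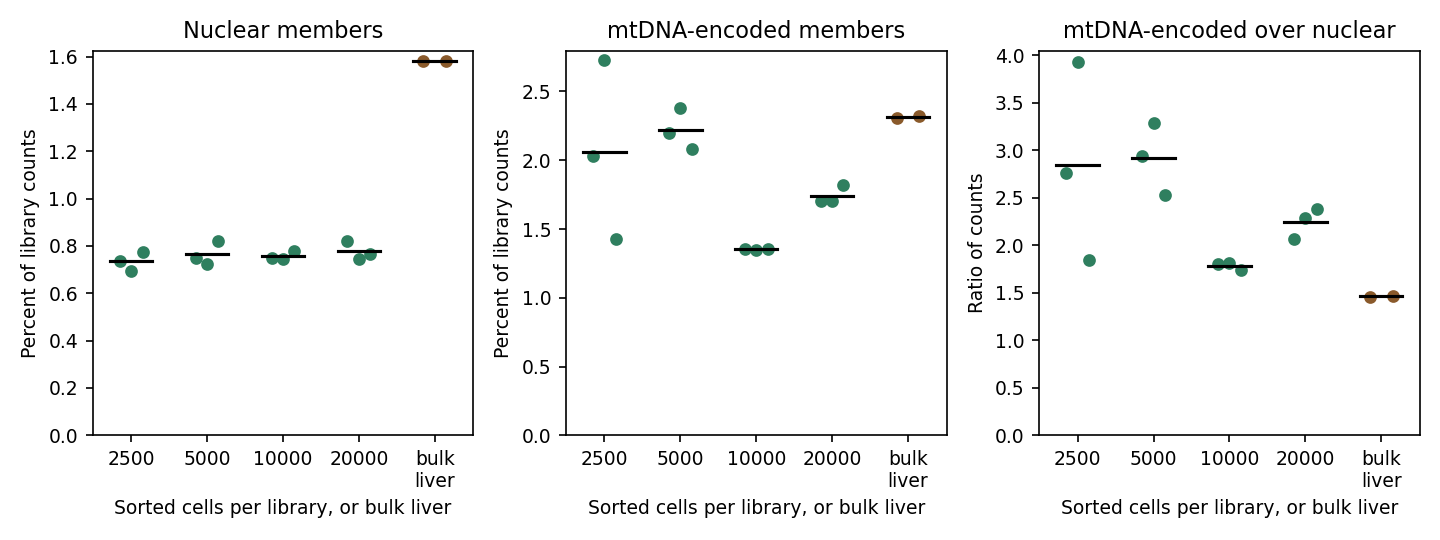
Share of all counts taken by nuclear and by mitochondrially encoded members, and their ratio, in each of the 12 sorted and 2 bulk libraries. The nuclear share lies between 0.695% and 0.822% in sorted libraries against 1.58% in both bulk libraries, and every sorted ratio lies above the bulk values of 1.46 and 1.47.

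Within a library, the mitochondrially encoded members weighed more against the nuclear ones in sorted leukocytes. Nuclear members took 0.759 ± 0.0370% of counts in sorted libraries (SD, n = 12; range 0.695% to 0.822%) against 1.58% in each bulk library. Mitochondrially encoded members took 1.84 ± 0.450% in sorted libraries (range 1.35% to 2.73%) against 2.30% and 2.32% in bulk liver, so the groups overlapped in this share. This share and the ratio of counts lack mt-Nd4l, mt-Co2, mt-Co3, mt-Atp6 and mt-Atp8, which had no counts. On TPM the share of all mitochondrially encoded members was higher in sorted libraries, at 7.02 ± 1.58% (range 4.99% to 9.62%) against 4.73% and 4.80% in bulk liver. The ratio of mitochondrially encoded to nuclear counts was 2.45 ± 0.681 in sorted libraries (range 1.74 to 3.93) against 1.46 and 1.47, a difference of 0.695 in log2 that needs no scaling. On TPM the difference was 1.20. It was 1.10 without mt-Atp8 and the members that share words with the chromosome 1 copies, an alternative chosen after seeing the data. Mitochondrial rRNA, transcribed from the same DNA, took 0.577% to 1.18% of counts in sorted libraries against 1.72% and 1.63% in bulk liver, so its share was lower where that of the encoded subunits overlapped.

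The side by side of single subunits of 1 complex gave unequal answers. The log2 ratio of mt-Nd1 to Ndufs1 in complex I was 4.93 ± 0.339 in sorted libraries (SD, n = 12) against 4.19 in bulk liver, a difference of 0.74 (exact two-sided permutation test, p = 0.022, adjusted p = 0.0366 over 5 pairs). In complex III, mt-Cytb to Uqcrc1 was 3.97 ± 0.437 against 3.77, a difference of 0.20 (exact permutation p = 0.527). Each ratio depends on the nuclear partner chosen, and Uqcrc1 was the least reduced nuclear gene of complex III. Other partners were not tested. In complex IV, mt-Co1 to Cox4i1 was 3.98 ± 0.457 against 3.97, a difference of 0.02 (exact permutation p = 0.945). Of 11 pairs planned, 6 held a gene with under 10 counts in some library and were not tested.

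Genes that build or feed the complexes were mostly lower as well with TMM scaling, with directions that often turned with library totals. The counts are to be read against all genes, of which 38.5% were called lower and 41.8% higher with TMM scaling, and 22.4% lower and 65.9% higher with library totals. Assembly factors of complex IV were lower in 18 of 19 genes (median log2 fold change -1.05), but with library totals 7 were higher and 7 lower. Sco2, which delivers copper, had a log2 fold change of -2.94, and Coa5, an assembly factor, -0.49 with TMM scaling and 0.71 with library totals. The factors of complexes III and V, 1 of which is the member Atp5s, were lower in 12 of 12 (median -1.13; 3 higher and 3 lower with library totals), among them Tmem70, which supports the c ring, at -1.93. Complex I factors outside the Nduf names were lower in 9 of 9 (median -0.72), yet 6 of them were higher with library totals, a share close to that of all genes. Of 4 complex II factors 3 were lower, and Sdhaf2, which helps attach the flavin, was at -0.17 (edgeR adjusted p = 0.0929) with TMM scaling and 1.04 with library totals.

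Electron carriers and their feeders were lower in 15 of 18 genes, and 10 of 18 also with library totals. Coq8a, a kinase-like protein of ubiquinone synthesis, had 57.5 to 75.5 CPM in sorted libraries against 1223 and 1240 CPM in bulk liver, a log2 fold change of -4.21 (SE 0.05). Etfa, which carries electrons from fatty acid oxidation, was at -3.91. Among carriers of ADP, ATP and phosphate, Vdac1, the outer membrane pore, was at -3.48 and the ADP/ATP exchanger Slc25a5 at -1.91. Ucp2, an inner-membrane carrier of the uncoupling protein family, went the other way, with 1003 to 1329 CPM in sorted libraries against 70.0 and 70.7 CPM in bulk liver, a log2 fold change of 4.02 (SE 0.10, edgeR adjusted p = 1.62e-18) that was 5.22 with library totals.

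The machinery that expresses mitochondrial DNA was mixed. Of 15 genes for its transcription and replication, 9 were lower and 2 higher with TMM scaling, and 3 lower and 9 higher with library totals, the second pair close to the 22.4% and 65.9% of all genes. Tfam, which packages and transcribes mitochondrial DNA, was at -0.24 with TMM scaling and 0.96 with library totals, and Polg, the catalytic subunit of its polymerase, at 0.47. Of the mitochondrial ribosomal proteins only a part was listed, and 20 of 22 large-subunit and 17 of 20 small-subunit genes were lower, where 38.5% of all genes were, with medians of -1.59 and -1.23; with library totals 7 and 5 were higher and 13 and 9 lower. Lrpprc, which stabilises mitochondrial mRNAs, was at -1.55. The mitochondrial rRNAs mt-Rnr1 and mt-Rnr2 had log2 fold changes of -1.87 and -2.24, and all 18 genes of the TCA cycle, which supplies NADH and succinate, were lower with a median of -1.90, though 4 of them were higher with library totals.

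The nuclear members are known for promoters with sites of NRF1, GABPA, YY1 and the estrogen-related receptors, so short motif cores were searched on both strands in RefSeq promoter windows (GRCm38.p6, 250 bases before to 50 after a gene's start), found for 76 of 92 nuclear members. The NRF1 core TGCGCA, which is its own reverse complement, was present in 19 member promoters (25%) against 8.06% of 27025 promoters in the table. The GABPA core CCGGAAG was present in 17 (22.4%) against 9.12%, the YY1 core AAGATGG in 11 (14.5%) against 6.48%, and the estrogen-related receptor element AAGGTCA in 8 (10.5%) against 4.66%. Member promoters were richer in G and C, with a median of 58.5% against 52.7%; the part of base composition in these shares was not tested. Promoters of 2 strongly reduced members, of the complex II anchor Sdhd, which held 3 of the 4 motifs, and of Cox7a2l are shown, with matches in capitals; all lie on the minus strand.
Uqcr11 (chr10:80406772-80407071, -): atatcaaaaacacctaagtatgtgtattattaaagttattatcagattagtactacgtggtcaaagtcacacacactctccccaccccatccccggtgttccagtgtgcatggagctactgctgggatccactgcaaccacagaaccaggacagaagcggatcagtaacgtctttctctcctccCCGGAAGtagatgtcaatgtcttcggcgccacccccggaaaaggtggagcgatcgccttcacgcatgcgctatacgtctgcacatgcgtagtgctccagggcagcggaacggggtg
Ndufa6 (chr15:82354242-82354541, -): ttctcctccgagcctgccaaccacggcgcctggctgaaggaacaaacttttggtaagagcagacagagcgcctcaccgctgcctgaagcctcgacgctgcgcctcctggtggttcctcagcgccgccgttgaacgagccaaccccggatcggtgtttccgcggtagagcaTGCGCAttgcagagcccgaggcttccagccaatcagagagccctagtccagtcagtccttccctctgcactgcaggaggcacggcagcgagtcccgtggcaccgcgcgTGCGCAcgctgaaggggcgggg
Sdhd (chr9:50603800-50604099, -): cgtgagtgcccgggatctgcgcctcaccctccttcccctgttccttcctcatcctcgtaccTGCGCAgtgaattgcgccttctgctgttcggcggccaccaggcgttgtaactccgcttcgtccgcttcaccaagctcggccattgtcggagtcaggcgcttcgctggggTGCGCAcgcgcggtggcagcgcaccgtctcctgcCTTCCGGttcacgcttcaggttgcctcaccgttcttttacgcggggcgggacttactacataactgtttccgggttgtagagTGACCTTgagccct
Cox7a2l (chr17:83514284-83514583, -): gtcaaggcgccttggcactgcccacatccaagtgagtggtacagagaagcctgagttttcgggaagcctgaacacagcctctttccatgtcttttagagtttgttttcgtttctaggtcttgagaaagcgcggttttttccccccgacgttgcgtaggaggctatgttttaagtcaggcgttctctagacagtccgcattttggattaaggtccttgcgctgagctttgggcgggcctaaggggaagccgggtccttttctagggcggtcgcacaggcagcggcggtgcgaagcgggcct
Uqcr11 holds the GABPA core 1 time and Ndufa6 the NRF1 core 2 times. Sdhd holds the NRF1 core 2 times, and the GABPA core and the receptor element 1 time each in reverse complement. The Cox7a2l window, whose RefSeq start lies inside the longer GENCODE gene, holds none of these letters. A match is a description of the sequence and says nothing of binding.

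The sorted libraries were also compared by the number of cells they came from. Among the 12 sorted libraries, edgeR called 0 of 94 tested members at an adjusted p of 0.05 for 2500, 5000 or 10000 against 20000 cells, for a slope over log2 cell number or for any difference between inputs, where 0.419%, 0.0879%, 0.304%, 0.0811% and 0.297% of 14795 genes were called. At an unadjusted p under 0.05 the members numbered 29, 8, 24, 15 and 25 in those tests, where 13.3%, 8.13%, 10.2%, 10.7% and 10.8% of all genes passed. DESeq2 called 4, 0, 2, 0 and 9 of them, where it called 1.84%, 0.588%, 1.22%, 0.825% and 2.05% of all genes. For 2500 against 20000 cells, 25 of the 29 were lower and 4 higher at 2500 cells, where 6.97% of all genes were lower and 6.33% higher at the same threshold.

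**Figure D4:**
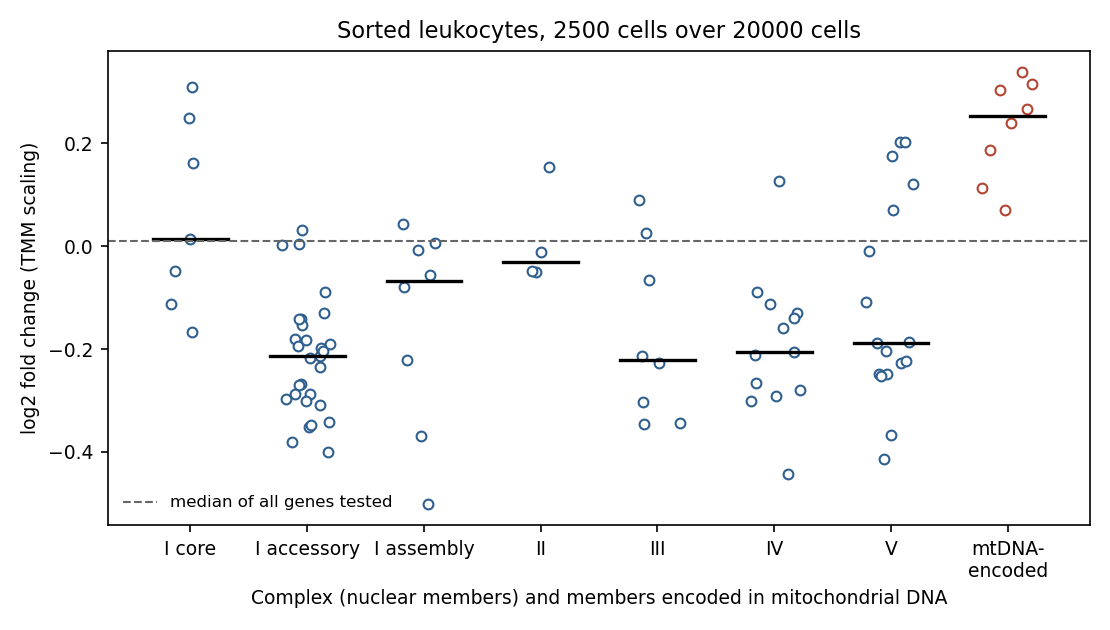
Log2 fold change of 2500 over 20000 sorted cells for each tested member, grouped by complex (blue, nuclear) and encoded in mitochondrial DNA (red), with TMM scaling; bars are medians and the dashed line is the median of all genes tested. Nuclear members have a median of -0.19 and mitochondrially encoded ones 0.25, against 0.01 over all genes, and all points are open because none passed the adjusted threshold.

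The nuclear members leaned lower at 2500 and at 10000 cells than at 20000, with medians of -0.19 and -0.14 against 0.01 over all genes, and -0.08 at 5000 cells. Ndufa4 had 71.6, 71.1 and 79.0 CPM at 2500 cells against 113, 96.0 and 94.7 CPM at 20000 cells, a log2 fold change of -0.44 (SE 0.10, edgeR adjusted p = 0.0721). Ndufa6 had 40.0, 39.1 and 38.1 CPM at 2500 cells against 52.6, 47.7 and 55.8 CPM at 20000 cells, a log2 fold change of -0.40 (edgeR adjusted p = 0.119). Atp5g3 had 150.05, 147 and 161 CPM at 2500 cells against 178, 178 and 175 CPM at 20000 cells, a log2 fold change of -0.20 (edgeR adjusted p = 0.141). These 3 genes had every library of 2500 cells below every library of 20000 cells, but none was called by edgeR. The share of all genes with such a separation was not counted. Ndufs1 had the opposite sign, with 119, 121 and 121 CPM at 2500 cells against 99.4, 98.4 and 96.3 CPM at 20000 cells, a log2 fold change of 0.31 (SE 0.07, edgeR adjusted p = 0.0650).

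Summed exon length was set beside these differences. For 2500 against 20000 cells, nuclear members with under 1000 bases of summed exons had a median of -0.22 (18 genes), against -0.17 for other protein-coding genes of that length (251 genes). Between 1000 and 2000 bases the medians were -0.15 for nuclear members (35 genes) and -0.03 for other protein-coding genes (1293 genes). Among genes of 2000 bases or more the medians were -0.17 for nuclear members (33 genes) and 0.02 for other protein-coding genes (10588 genes). Nuclear members were short, with a median of 1737 bases against 4448. Across the 86 nuclear members, Spearman's rho between length and fold change was 0.29 for 2500 and 0.36 for 10000 against 20000 cells, while across 12132 other protein-coding genes it was -0.0069 and -0.0656, all as descriptions; the part of length in these differences was not tested.

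**Figure D5:**
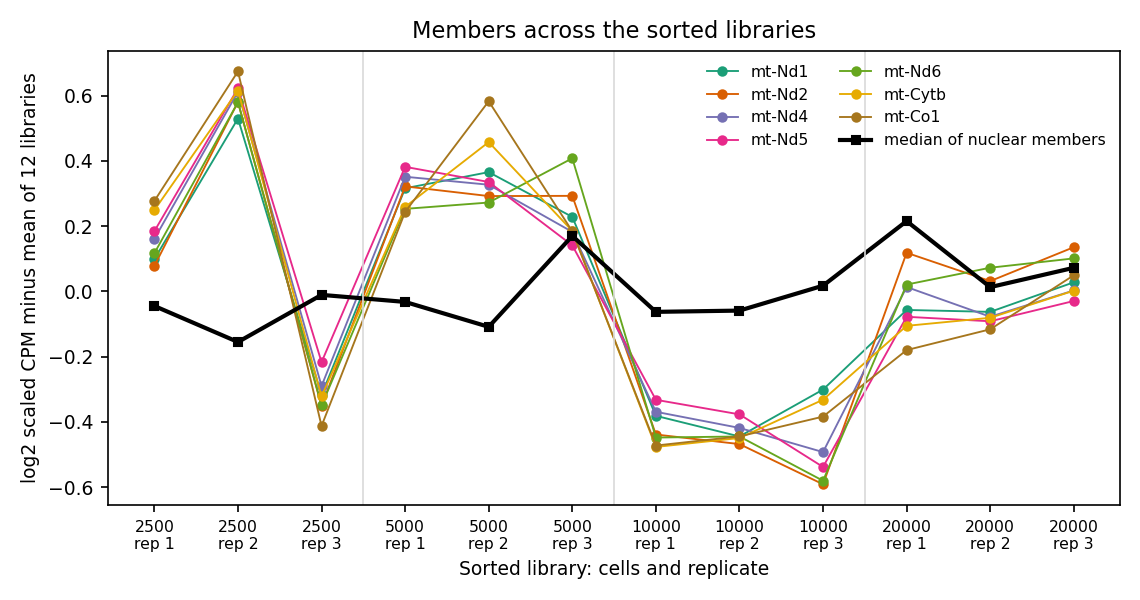
Deviation of 7 mitochondrially encoded members from their own mean over the 12 sorted libraries, in log2 of TMM-scaled CPM, with the median deviation of the nuclear members for comparison (black); libraries run from 2500 to 20000 cells. The mitochondrially encoded genes move together from library to library, and the 3 libraries of 10000 cells and 2500-cell replicate 3 lie below 0 for all 7.

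Mitochondrially encoded members varied from library to library together. They took 2.03%, 2.73% and 1.43% of counts in the libraries of 2500 cells, 2.20%, 2.38% and 2.08% at 5000 cells, 1.35%, 1.35% and 1.36% at 10000 cells, and 1.70%, 1.70% and 1.82% at 20000 cells. The libraries of 10000 cells were thus low and close together, and those of 2500 cells had the widest spread of the 4 inputs. mt-Nd2 had 2343, 3318 and 1740 CPM at 2500 cells, 2774, 2717 and 2718 at 5000, 1637, 1604 and 1473 at 10000, and 2409, 2268 and 2437 at 20000 cells. For 10000 against 20000 cells the log2 fold change of mt-Nd2 was -0.58 (SE 0.19, edgeR adjusted p = 0.347). Its libraries did not overlap between these groups, and the share of all genes for which this held was not counted. Mitochondrial rRNA was low in the same libraries, at 0.592%, 0.595% and 0.577% of counts at 10000 cells against 0.952%, 1.04% and 1.10% at 20000 cells, and at 0.592% in 2500-cell replicate 3.

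The calls of mitochondrially encoded genes between inputs changed when 2500-cell replicate 3 or replicate 2 was left out. These 2 libraries held the lowest and the highest mitochondrially encoded share at 2500 cells, 1.43% and 2.73%. Leaving out either narrows the spread within that group, so the calls below do not replace those of the full fit. The 7 well-counted genes also moved together, so their calls are not independent of one another. Without 2500-cell replicate 3, all 7 well-counted mitochondrially encoded members were called for any difference between inputs (edgeR adjusted p from 0.000987 to 0.0305), where 0.684% of all genes were, and mt-Nd2 (-0.59), mt-Nd6 (-0.55) and Atp5g3 (-0.27) were called lower at 10000 than at 20000 cells, where 0.75% of all genes were called. Leaving out 2500-cell replicate 2 instead, 5 mitochondrially encoded members were called for any difference, where 0.458% of all genes were, and mt-Nd2 (-0.58) and mt-Nd6 (-0.55) for 10000 against 20000 cells, where 0.352% of all genes were.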

How the data were processed

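RNA of 12 sorted CD45+ leukocyte libraries and 2 bulk liver libraries was, per the labels' protocols, extracted with a column kit and DNase, amplified with SMART-seq v4 and tagmented. The submitters' processing notes name RSEM 1.3.0, featureCounts 1.5.1, STAR 2.5.2b, DESeq2 1.34.0, FastQC 0.11.5 and the build GRCm38, without roles; the sources used here do not say how reads matching several genes were treated. The authors deposited raw counts per gene, TPM, and a variance-stabilised table not used here; the deposited TPM are not the counts divided by length, since some genes have TPM but no count.

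Groups came from the titles and all 14 columns of each table were mapped. Genes were tested on the deposited counts with edgeR 4.0.16 (quasi-likelihood, robust, TMM, filterByExpr by group, 1 mean per group, Benjamini-Hochberg over all genes tested, threshold 0.05) in R 4.3.3; sorted against bulk is the mean of the 4 sorted groups minus bulk liver, and inputs were tested on the 12 sorted libraries. TPM were tested with limma 3.58.1 on log2(TPM + 1). Pair ratios used counts plus 0.5 and exact permutation over libraries. The code was tested on simulated data with genes lowered to 0.5 of their level. For sorted against bulk 197 of 200 were recovered with 9 false calls, and for 2500 against 20000 cells 184 of 200 with 5. The simulation gave every gene the same spread and changed only well-counted genes. It does not show the power for the smaller differences between inputs or for more variable genes. Symbols, exon lengths and transcript sequences came from GENCODE M21, which matched 48348 of 48794 gene IDs to a symbol; shared sequence was counted as exact words of 50 bases. DESeq2 1.42.0, Python 3.11.15, pandas 2.3.3 and scipy 1.17.1 were also used.

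The members, the related gene lists and the tests were chosen with earlier results of these data known. Genes were named by rule: every mitochondrially encoded and every untested member, fixed paralogue sets, and per complex and for the assembly factors the 2 most highly counted, the 2 highest and the 2 lowest fold changes; from related lists the 2 most highly counted and the largest change. Of the genes so named, 1 is not reported here. Replicate numbers from the titles did not pair the libraries. Between replicates the chi-square per degree of freedom of the counts ran from 1.56, in the bulk pair, to 14.0, so no column of counts duplicated another. These values cannot tell libraries of different mice from repeated libraries of 1 sample. Counting strand is not given, so overlapping and antisense genes cannot be separated. Alternatives tried were other scalings, filters, tools, TPM in place of counts, a replicate block and leaving out each library.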

Additional observations from a re-analysis of the deposited data

Results flagged for a closer look

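The results listed here are signals in data outside the main measurement. 4 mitochondrially encoded members with 0 counts in every library had TPM values in the authors' deposited table, given here as the mean of 12 sorted libraries with its SD. mt-Atp6 was at 19562 ± 3730 in sorted libraries against 10514 and 10754 in bulk liver, and mt-Atp8 at 12064 ± 4336 against 5873 and 6181. mt-Co2 was at 9674 ± 2455 in sorted libraries against 5539 and 6092 in bulk liver, and mt-Co3 at 2175 ± 818 against 1341 and 1121. The sorted libraries of mt-Atp6 ranged from 14434 to 25888, all above bulk liver on this scale, on which the median of all genes is also higher by 1.20 in log2.

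The chromosome 1 copies carried TPM as well, with 0 to 6 counts per library for all of them together. Gm28437, the copy of mt-Co3, averaged 15969 ± 4284 TPM in sorted libraries against 12962 and 13328 in bulk liver. Gm10925, the copy of mt-Atp6, averaged 7792 ± 2338 against 4983 and 5105, and Gm29216, the copy of part of mt-Co1, 7890 ± 1427 against 3300 and 3448 (SD, n = 12 sorted libraries each). Where a gene and its copy have nearly the same length, their sum hardly depends on how TPM was divided between them. It was 27353 ± 5390 for mt-Atp6 in sorted libraries against 15498 and 15859 in bulk liver. For mt-Co3 it was 18144 ± 4934 against 14303 and 14448, and for mt-Co2 9923 ± 2756 against 6605 and 6737. For mt-Co1 the sum was 13141 ± 2813 in sorted libraries against 10817 and 11016 in bulk liver, although mt-Co1 alone was at 5251 ± 1425 against 7518 and 7568. But mt-Co1 has 1545 bases and Gm29216 only 492, so this sum does depend on the division. It also leaves out Gm13340 on chromosome 2, which holds 27.5% of the words of mt-Co1. The sums were lower in sorted libraries on average for mt-Nd3, at 2255 ± 773 against 2471 and 2474, and for mt-Nd4l, at 810.0 ± 239 against 908 and 996. Of these sums, only that of mt-Atp6 had every sorted library above both bulk libraries. mt-Atp8 shares no 50-base word with another annotated gene and had 0 counts. It lies at chrM:7766-7969, after mt-Co2 and overlapping the start of mt-Atp6. The chromosome 1 stretch between their copies, Gm28661 and Gm10925, was not searched for an unannotated copy of mt-Atp8. Shared sequence of mt-Atp8 outside annotated genes was thus not tested.

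Cox6a2, the muscle isoform of subunit VIa that the naming rule leaves out, had 150 to 262 counts in every sorted library against 0 counts in both bulk libraries. Its scaled level averaged 19.5 ± 3.53 CPM in sorted libraries (SD, n = 12; range 14.9 to 27.2). Its TPM ranged from 38.4 to 68.1 in sorted libraries and was listed at 0 in bulk liver. The skeletal and cardiac muscle markers Ckm, Acta1, Myh7 and Tnnt2 together took at most 0.000116% of counts in any sorted library.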

How the results depend on the processing

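With library totals, 6 nuclear members were called higher and 4 mitochondrially encoded ones lower, with medians of -0.98 and -0.35; among the members named with values, Atp5g2 (1.16), Atp5s (0.25), Cox7a2l (0.40), Cox7c (1.12), Ndufaf3 (0.45), Ndufaf5 (0.73) and mt-Nd1 (0.16) turned positive. On TPM, 8 nuclear members were higher (median -0.51), and 5 mitochondrially encoded ones higher and 1 lower (median 0.38); among the named members, Atp5s (0.74), Cox7a2l (0.91), Ndufa3 (0.068), Ndufaf3 (0.68), Ndufaf5 (1.02), Ndufb7 (0.29), mt-Cytb (0.38), mt-Nd1 (0.70), mt-Nd2 (0.41), mt-Nd3 (0.039), mt-Nd4 (0.10) and mt-Nd5 (0.28) turned positive. The nuclear median was -2.30 with DESeq2 size factors and with DESeq2, and -2.01 without a filter, where Atp5g2 (0.15) and Cox7c (0.10) turned positive. The log2 ratio of mitochondrially encoded to nuclear members differed between sorted and bulk libraries by 1.20 on TPM. Without shared genes and mt-Atp8, chosen after seeing the data, it differed by 1.10. The nuclear share differed by -0.896 points without rRNA, Lars2 and Gm genes and -0.973 on TPM. The mitochondrial share differed by 2.26 points on TPM, opposite in sign to counts, and mt-Co1/Cox4i1 by -0.19 in log2. Members called between inputs numbered 8, 7, 8 and 11 without a filter (2500, 5000 and 10000 against 20000 cells, any difference), 4, 2 and 9 with DESeq2 (2500, 10000, any), and 1 with bulk kept (10000). The share of all genes called was not counted without a filter or with bulk kept, so those numbers have no background beside them. The cause of these changes was not tested.

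Leaving out each library gave 83 to 84 nuclear members lower, 0 higher (median -2.21 to -2.12), and 8 mitochondrially encoded lower (median -1.62 to -1.47). The log2 ratio of mitochondrially encoded to nuclear members differed between sorted and bulk libraries by 0.629 to 0.735. The share differences were -0.827 to -0.815 points (nuclear) and -0.549 to -0.423 points (mitochondrially encoded). Calls between inputs numbered 0 to 1 (2500), 0 to 0 (5000), 0 to 3 (10000), 0 to 0 (slope) and 0 to 7 (any). Pair differences were 0.69 to 0.78 (mt-Nd1/Ndufs1), 2.07 to 2.13 (Cox7a2l/Cox7a2), 0.36 to 0.40 (Atp5g1/Atp5g3), 0.13 to 0.25 (mt-Cytb/Uqcrc1) and -0.060 to 0.061 (mt-Co1/Cox4i1). Of the uncalled genes, Cox6b2 kept its sign (1.04 to 1.95), while Atp5g2 gave -0.192 to 0.064 and Cox7c -0.166 to 0.146.

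Same-numbered libraries correlated at -0.136 to 0.213 over 26 pairs, so the numbers were not taken as pairs; with a replicate block the nuclear and mitochondrial medians were -2.22 and -1.48 and no count of called members changed. Members with few counts, such as mt-Nd3, Atp5g2, Cox6b2 and Ndufa4l2, are limited by depth.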

Other observations

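Glycolysis genes went in both directions between sorted leukocytes and bulk liver. Of 19 glycolysis genes, 9 were higher and 9 lower in sorted cells with TMM scaling, with a median log2 fold change of -0.12; with library totals 12 were higher and 5 lower. These shares are close to those of all genes, 41.8% higher and 38.5% lower with TMM scaling and 65.9% and 22.4% with library totals. Pkm, the muscle-type pyruvate kinase, had 494 to 612 CPM in sorted libraries against 25.98 and 30.8 CPM in bulk liver, a log2 fold change of 4.27 (SE 0.09). Slc2a3, a high-affinity glucose transporter, had 105 to 136 CPM in sorted libraries against 0.769 and 2.14 CPM in bulk liver. Ldha, lactate dehydrogenase A, had 416 to 477 CPM in sorted libraries against 1930 and 1947 CPM in bulk liver, a log2 fold change of -2.14.

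Mitochondrial fatty acid oxidation was lower in sorted leukocytes in 12 of 12 genes, with TMM scaling (median -3.46) and with library totals (median -2.26). Acadvl, which starts the oxidation of very long chains, had 70.1 to 89.7 CPM in sorted libraries against 939 and 941 CPM in bulk liver. Decr1, an auxiliary enzyme for unsaturated chains, was at -4.47, and Cpt1a, the entry step in liver, at -1.42. Regulators of mitochondrial biogenesis were mixed, with 4 of 11 higher and 6 lower with TMM scaling and 7 higher and 2 lower with library totals, near the shares of all genes: Ppara had 8 counts in all sorted libraries together against 1281 in bulk liver, Creb1 had a log2 fold change of 2.80, and Gabpa was at -0.28 with TMM scaling and 0.92 with library totals. Import genes and chaperones of mitochondria were lower in 11 of 12, with the chaperone Hspa9 at -2.70 and Hspe1 at -3.66; with library totals 5 were lower and 5 higher.

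Vdac1 was the only gene of these related lists with an adjusted p under 0.05 for 2500 against 20000 cells, outside the Kupffer cell markers, of which 2 passed. Of all 14795 genes tested, 0.419% were called in that comparison. The lists outside the cell markers had 222 entries, so the single call of Vdac1 was near the share of all genes. Its log2 fold change was -0.63 (edgeR adjusted p = 0.0409).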
